A study of Rattus norvegicus with 138 samples.

Results

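The 7 genes described here encode parts of the kallikrein-kinin and renin-angiotensin systems: Klk1, Bdkrb1, Bdkrb2, Ace, Agt, Agtr1a and Agtr2. They were chosen by symbol, with earlier results of these data known, and are 7 of 16181 gene symbols with values in the table used. RNA from the tibialis anterior (TA) muscle of male Lewis rats, approximately 4 months old, was sequenced after volumetric muscle loss (VML), a wound made in a single TA muscle with a 6 mm biopsy punch and too large for muscle to fill by itself. Injured muscles were left without repair or received a minced muscle graft (MMG), which is finely cut autologous muscle placed in the defect, and were taken at 3, 7, 14 or 28 days post injury (DPI). Some rats carry the label Run and the others NoRun, and the kind of running is not given in the sources used here. The contralateral TA of an operated rat was not injured, and the controls, labelled Sham at day 0 and described by the study as unoperated, are the left and right TA of 2 rats, 4 muscles in all. Control and operated rats are numbered in separate series, so that a difference from control muscle cannot be told apart from a difference between those series.

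Values are in TPM, a transcript level divided by transcript length and scaled to the same total in every library, so levels can be set side by side between genes. The labels of 9 libraries did not place them, and 13 with 901 to 5712 symbols above 1 TPM were left out. The 116 libraries used had 7866 to 10948 such symbols and come from 114 muscles of 78 rats: 4 control, 34 contralateral and 76 injured. No read depth can be taken from TPM, so no counting error can be attached to a value. Skeletal fibre markers summed to 198913 to 250198 TPM in control muscle and to 21756 to 80428 TPM in injured muscle at 3 DPI, with all 10 listed markers in the table. Macrophage markers, also 10 of 10, went the other way, from 25.3 to 51.0 TPM in control to 4230 to 7640 TPM at 3 DPI. In RNA from whole muscle, fewer cells of a type and less RNA per cell cannot be told apart, which holds for every level below.

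Tissue kallikrein, the product of Klk1, is a serine protease that releases kinins from kininogens. Kinins act on 2 receptors, B2 (Bdkrb2), which most tissues carry, and B1 (Bdkrb1), which is known to be induced by injury and inflammation. Angiotensinogen (Agt) is the precursor of angiotensin I, angiotensin-converting enzyme (Ace) makes angiotensin II from it and also degrades bradykinin, and angiotensin II acts on the type 1 (Agtr1a) and type 2 (Agtr2) receptors. In muscle the type 1 receptor is known for its part in fibrosis and wasting.

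RefSeq sequence around the start of the gene, on build GRCr8, was matched for 5 of 7 members and not for Bdkrb2 and Agt. It is printed for the 2 pairs of these 5 members whose group means ran most alike, Klk1 with Agtr2 (Pearson's r = 0.93 over 31 groups) and Bdkrb1 with Agtr1a (r = 0.89). Each window runs from 250 bases before to 50 bases after the start of the gene. Capitals mark matches on either strand to any of 5 motifs, none of which overlapped another: TATAAA (the TATA box), CCAAT (the CCAAT box), CAGCTG or CAGGTG (forms of the E-box) and TGANTCA (the AP-1 motif). The Klk1 window lies at chr1:103778902-103779201 on the plus strand, Agtr2 at chrX:116914070-116914369 on the plus strand, Bdkrb1 at chr6:130275436-130275735 on the plus strand and Agtr1a at chr17:34435383-34435682 on the minus strand.
Klk1: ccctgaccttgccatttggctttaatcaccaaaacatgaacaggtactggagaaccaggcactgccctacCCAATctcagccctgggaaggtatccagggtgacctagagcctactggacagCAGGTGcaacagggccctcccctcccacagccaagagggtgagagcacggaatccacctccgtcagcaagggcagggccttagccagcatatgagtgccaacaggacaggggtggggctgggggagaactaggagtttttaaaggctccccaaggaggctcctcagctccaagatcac
Agtr2: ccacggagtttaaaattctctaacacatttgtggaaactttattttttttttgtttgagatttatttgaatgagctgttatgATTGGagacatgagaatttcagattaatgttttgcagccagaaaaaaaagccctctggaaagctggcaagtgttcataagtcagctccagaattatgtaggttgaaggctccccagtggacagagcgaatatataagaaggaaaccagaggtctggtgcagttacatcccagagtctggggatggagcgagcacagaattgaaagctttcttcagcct
Bdkrb1: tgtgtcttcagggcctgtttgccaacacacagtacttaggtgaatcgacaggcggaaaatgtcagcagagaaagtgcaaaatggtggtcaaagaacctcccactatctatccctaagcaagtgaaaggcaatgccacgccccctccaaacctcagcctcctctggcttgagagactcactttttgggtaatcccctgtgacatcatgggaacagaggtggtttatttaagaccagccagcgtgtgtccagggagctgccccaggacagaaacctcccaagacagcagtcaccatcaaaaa
Agtr1a: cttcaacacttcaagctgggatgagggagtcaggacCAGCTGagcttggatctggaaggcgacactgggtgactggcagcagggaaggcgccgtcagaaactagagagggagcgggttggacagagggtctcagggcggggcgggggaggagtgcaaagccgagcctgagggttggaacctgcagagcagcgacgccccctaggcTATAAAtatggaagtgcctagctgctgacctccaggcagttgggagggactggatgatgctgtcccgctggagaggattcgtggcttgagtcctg
Of all 33469 such windows of 300 bases, 14.2% hold TATAAA, 37.5% CCAAT, 15.1% CAGCTG, 18.8% CAGGTG and 7.33% TGANTCA. Klk1 has 1 CCAAT and 1 CAGGTG, Agtr2 has 1 CCAAT on the opposite strand, Agtr1a has 1 TATAAA and 1 CAGCTG, and in Bdkrb1 none of the letters searched occur. The CCAAT match is the only one shared by Klk1 and Agtr2, and Bdkrb1 and Agtr1a share none. These matches are letters in a window, and binding was not measured.

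Klk1, the protease of the kinin pathway, had the highest mean of the 7 genes in injured muscle on each day, and in control muscle it stood below Ace, Agtr1a and Agt. The 4 control muscles held 0.21, 0.61, 0.80 and 0.88 TPM. Contralateral muscles held 0.97 to 3.01 TPM at 3 DPI (n = 8, median 1.88), 0.94 to 3.16 at 7 DPI (n = 14, median 2.06), 0.29 to 3.27 at 14 DPI (n = 8, median 1.41) and 0.27, 0.29, 0.44 and 0.59 at 28 DPI. Injured muscles held 7.43 to 83.7 TPM at 3 DPI (n = 24, median 39.1), 185 to 525 at 7 DPI (n = 24, median 321), 92.0 to 329 at 14 DPI (n = 16, median 211) and 18.5 to 140 at 28 DPI (n = 12, median 46.7). Every injured muscle was thus above every uninjured muscle, the lowest of the 76 injured standing at 7.43 TPM and the highest of the 38 uninjured at 3.27 TPM. The order of mean levels by day was 7, 14, 28 and 3, at 327 ± 80.8, 217 ± 62.8, 59.0 ± 35.4 and 40.4 ± 17.8 TPM (SD), and the ranges of each pair of neighbours in this order overlapped. In running rats alone 3 and 28 DPI changed places, at 37.9 and 28.8 TPM, while non-running rats had 43.8 and 74.1 TPM. The ratio of the injured to the contralateral mean was 21.2, 172, 146 and 148 on the 4 days in turn. These means pool running and non-running rats except for contralateral muscle at 28 DPI, where all 4 rats were non-running. In non-running rats alone the ratio was 27.8, 197, 256 and 186, and in running rats 16.98, 129.02 and 99.8 at 3, 7 and 14 DPI. These differences are descriptions, because the injury contrast was known when the genes were chosen.

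**Figure D1:**
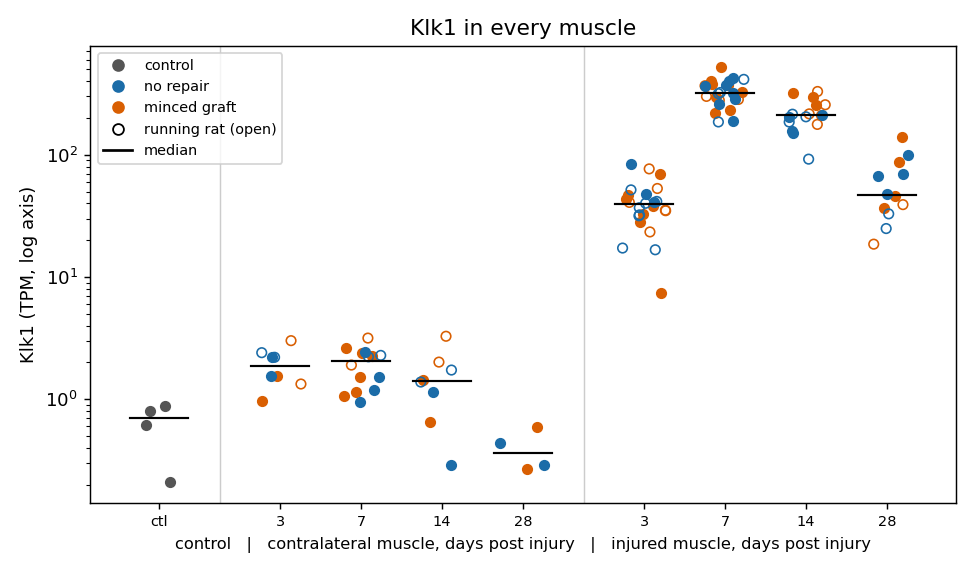
Klk1 level in TPM on a log axis for each of 114 muscles, by control (ctl), contralateral and injured muscle and by day post injury; colour gives the repair arm, open circles are running rats and the bar is the median. All 76 injured muscles lie above 7 TPM and all 38 uninjured muscles below 4 TPM, and the injured medians are 39.1, 321, 211 and 46.7 TPM at 3, 7, 14 and 28 days.

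On the log2(TPM + 1) scale, Klk1 in non-running rats stood 2.91 higher at 7 than at 3 DPI, 0.57 lower at 14 than at 7 DPI (log2 -0.57) and lower again at 28 than at 14 DPI (log2 -1.67), each the mean over both repair arms. Rats of 14 and 28 DPI come from separate ranges of rat numbers, so day and range cannot be told apart in the last step of Klk1. Non-repaired muscle exceeded control by 5.1, 7.64, 6.80 and 5.44 at 3, 7, 14 and 28 DPI, and with size factors, which set the median gene equal between libraries, by 4.45, 7.03, 6.59 and 5.24. Over all 11328 genes tested the median difference of non-repaired injured from control muscle was itself 0.96, 0.91, 0.53 and 0.52 on these days, which is the shift against which any gene has to be read. Reads of the near-identical Klk1b and Klk1c genes may be shared with Klk1, and the 8 such symbols in the table summed to at most 3.54% of the Klk1 level in any injured muscle (median 1.28%).

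The B1 receptor Bdkrb1 was near 0 in uninjured muscle and highest at the earliest day. It was listed at 0 in 29 of 38 uninjured muscles, and the highest of them held 0.11 TPM. Injured muscles held 1.40 to 7.21 TPM at 3 DPI (median 2.66), 0.09 to 1.37 at 7 DPI (median 0.77), 0.03 to 0.62 at 14 DPI (median 0.29) and 0 to 0.13 at 28 DPI (median 0.09). At 3 DPI all 24 injured muscles were above all control and contralateral muscles, and at 28 DPI their range overlapped that of the contralateral muscles. From 3 to 7 DPI Bdkrb1 fell in non-running rats by 1.304 on the log2(TPM + 1) scale (SE 0.11, limma, Benjamini-Hochberg adjusted p = 3.34e-18), where 6.96% of all genes were called, that is, past an adjusted p of 0.05 and a log2 difference of 1, and with size factors the difference was -1.10. Bdkrb1 passed the filter on low values only through the 4 injured groups of 3 DPI, so a fall from that day was favoured, and with no filter the adjusted p was 5.29e-18. In running rats the same difference, which was not tested, was -0.74, inside the fold limit. The next step, 14 against 7 DPI, gave -0.42 ± 0.11 (SE), past the adjusted p (0.000469) but inside the fold limit, in a comparison with 8.88% of genes called.

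Bdkrb2, the B2 receptor, was low in every muscle and differed less between days than its partner. Control muscles held 0.17, 0.42, 0.60 and 0.77 TPM, and contralateral muscles 0.28 to 0.99 TPM over all days (n = 34, median 0.515). Injured muscles held 1.05 to 2.09 TPM at 3 DPI, 1.13 to 2.82 at 7 DPI, 0.85 to 2.01 at 14 DPI and 0.93 to 1.74 at 28 DPI, with medians of 1.61, 1.80, 1.40 and 1.26. On each day the injured muscles lay above all contralateral muscles of that day and above all controls. The injured to contralateral ratio of means ran from 2.12 at 3 DPI to 3.66 at 7 DPI, 3.07 at 14 DPI and 2.64 at 28 DPI. Between 7 and 14 DPI the log2 difference of -0.21 ± 0.08 (SE, adjusted p = 0.0140) turned to 0.02 with size factors, so no direction over these days is given. At 3 DPI B1 exceeded B2 in the mean (2.82 against 1.57 TPM), and at 7, 14 and 28 DPI it stood below B2, at 0.74, 0.29 and 0.08 TPM against 1.79, 1.42 and 1.26 TPM.

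**Figure D2:**
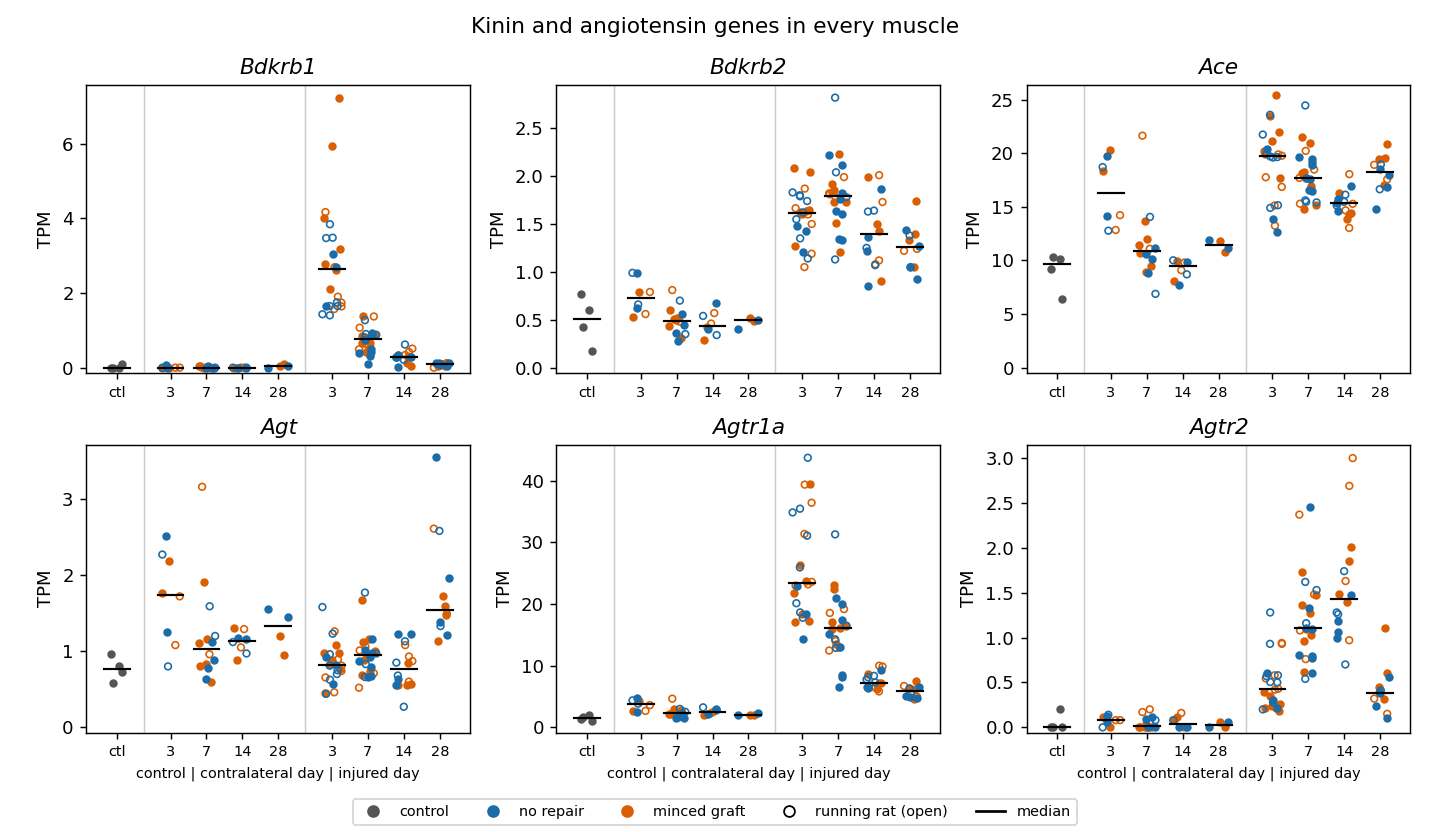
Levels in TPM of Bdkrb1, Bdkrb2, Ace, Agt, Agtr1a and Agtr2 in every muscle, a panel per gene, by control (ctl), contralateral and injured muscle and by day post injury, with symbols as for Klk1. Bdkrb1 and Agtr1a are highest in injured muscle at 3 days (medians 2.66 and 23.4 TPM) and Agtr2 at 14 days (median 1.44 TPM), while Ace and Agt overlap between injured and contralateral muscle at 3 days.

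Ace, whose enzyme makes angiotensin II and degrades kinins, was the member with the highest level in uninjured muscle. Control muscles held 6.36, 9.23, 10.2 and 10.3 TPM. Contralateral muscles held 12.8 to 20.3 TPM at 3 DPI, above all controls, then 6.88 to 21.6, 7.68 to 10.01 and 10.8 to 11.9 TPM. Injured muscles held 12.6 to 25.4 TPM at 3 DPI, 14.8 to 24.5 at 7 DPI, 13.03 to 18.1 at 14 DPI and 14.8 to 20.9 at 28 DPI. All injured muscles were above all controls, but at 3 and 7 DPI they overlapped the contralateral muscles. The difference of non-repaired injured from control muscle was 0.72, 0.95, 0.75 and 0.87 on the log2(TPM + 1) scale, beside 0.96, 0.91, 0.53 and 0.52 for the median of all genes, and with size factors it was -0.34, -0.05, 0.12 and 0.25, so that its direction at 3 and 7 DPI depended on the scaling. From 7 to 14 DPI a difference of -0.23 ± 0.09 (SE, limma, adjusted p = 0.0163) likewise became 0.14 with size factors.

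Agt, the precursor of the angiotensins, overlapped between injured and control muscle at 3, 7 and 14 DPI, whereas at 28 DPI each injured muscle (1.13 TPM or more) was above each control. Control muscles held 0.58, 0.73, 0.81 and 0.96 TPM, contralateral muscles 0.59 to 3.16 TPM (n = 34, median 1.16) and injured muscles 0.27 to 3.55 TPM (n = 76, median 0.91). The mean in injured muscle was 0.84, 0.95 and 0.79 TPM at 3, 7 and 14 DPI, below the contralateral means of 1.70, 1.195 and 1.12 TPM, and 1.84 TPM at 28 DPI, above the contralateral 1.29 TPM. Agt at 28 DPI differed from 14 DPI by 0.61 ± 0.13 on the log2(TPM + 1) scale (SE, limma, adjusted p = 0.000264) and by 0.64 with size factors, which is under the fold limit, in a comparison with 1.13% of genes called. Rats of 14 and of 28 DPI come from separate ranges of rat numbers, so that day and range cannot be told apart, for Agt or for any other gene. The 9 of 10 adipocyte markers in the table summed to 857 to 1529 TPM at 3 DPI, 557 to 717 at 14 DPI and 549 to 910 at 28 DPI in injured muscle, beside 151 to 403 TPM in control, and most of the sum at 3 DPI was Fabp4 (mean 944 TPM). The list did not move as one, since from 3 to 28 DPI in injured muscle the means of Fabp4 (944 to 510 TPM), Cfd (209 to 74.8) and Lipe (14.1 to 10.08) were lower and those of the other 6 higher. Adipoq, Plin1 and Cidec, named because they ran most like Agt over the groups, had means of 2.74, 0.69 and 0.54 TPM in injured muscle at 3 DPI, 2.01, 0.55 and 0.34 TPM at 14 DPI and 10.9, 2.97 and 1.79 TPM at 28 DPI, and of 9.76, 2.05 and 1.54 TPM in contralateral muscle at 3 DPI. These 3 means, like that of Agt, were higher in injured muscle at 28 DPI and in contralateral muscle at 3 DPI than in injured muscle at 3 and 14 DPI, a likeness that their choice fixes in part, and the part of fat cells in the levels of Agt was not tested.

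Agtr1a, the type 1 angiotensin receptor, had its highest level in injured muscle at 3 DPI, as Bdkrb1 did, and the lowest at 28 DPI. Control muscles held 1.08, 1.39, 1.7 and 2 TPM, and contralateral muscles 1.53 to 4.74 TPM (n = 34, median 2.46). Injured muscles held 14.4 to 43.7 TPM at 3 DPI (median 23.4), 6.52 to 31.3 at 7 DPI (median 16.1), 5.82 to 9.99 at 14 DPI (median 7.22) and 4.55 to 7.59 at 28 DPI (median 5.90). Each injured muscle was above each uninjured muscle of its day and above all controls. The injured to contralateral ratio of means was 7.28, 6.58, 3.00 and 2.75 on the 4 days. In non-running rats the day steps were -0.44 ± 0.14 from 3 to 7 DPI (SE, limma, adjusted p = 0.00600), -0.94 ± 0.15 from 7 to 14 DPI (adjusted p = 1.94e-08) and -0.29 ± 0.17 from 14 to 28 DPI (adjusted p = 0.249), all inside the fold limit and all of the same sign with size factors. In running rats the step from 3 to 7 DPI, which was not tested, was -0.71.

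Agtr2, the type 2 receptor, which is known for high levels in fetal tissue and low levels in the adult, followed a later course. It was listed at 0 in 18 of 38 uninjured muscles, whose highest value was 0.20 TPM. Injured muscles held 0.18 to 1.28 TPM at 3 DPI (median 0.43), 0.54 to 2.45 at 7 DPI (median 1.11), 0.70 to 3.00 at 14 DPI (median 1.44) and 0.10 to 1.11 at 28 DPI (median 0.39). At 7 and 14 DPI every injured muscle was above every uninjured muscle, and at 3 and 28 DPI some injured muscles lay under the highest control. In non-running rats the step from 3 to 7 DPI was 0.69 ± 0.10 (SE, limma, adjusted p = 7.43e-09), that from 7 to 14 DPI 0.19 ± 0.10 (adjusted p = 0.0822) and that from 14 to 28 DPI -0.74 ± 0.12 (adjusted p = 2.17e-06), with -0.73 under size factors for the last. The limit of rat numbers given for Agt holds for that last step. Agtr2 passed the filter only through the 8 injured groups of 7 and 14 DPI, which favours a rise into and a fall out of those days, and with no filter the adjusted p of these steps was 8.39e-09 and 2.48e-06. In running rats the step from 3 to 7 DPI, which was not tested, was 0.50. None passed the fold limit on this scale, which understates changes of low genes. Of the 18 tests of members between days 9 were past the adjusted p, among them the steps of Bdkrb1 and Agtr2 that the filter favoured, as were 61.1%, 79.1% and 16.3% of all genes for the 3 steps, and the drop of Bdkrb1 alone was also past the fold limit. The mean of Agtr1a was above that of Agtr2 on every day, at 26.01 against 0.49 TPM at 3 DPI and 5.79 against 0.42 TPM at 28 DPI, and nearest to it in ratio at 14 DPI with 7.59 against 1.55 TPM.

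Counted together, 5 of 7 members had every injured muscle above every control muscle at 3 DPI, where this held for 63.9% of all genes tested. The count was 5 of 7 on each later day too, with Agtr2 in place of Bdkrb1 at 7 and 14 DPI and Agt in its place at 28 DPI, beside 63.4%, 53.3% and 51.1% of all genes at 7, 14 and 28 DPI. Against the contralateral muscles of the same day the counts were 5, 5, 6 and 5 of 7, beside 47.2%, 55.1%, 55.6% and 54.1% of all genes. Bdkrb1, Bdkrb2 and Agtr2 entered the tests only through injured groups, since no uninjured group had a mean above 1 TPM for them.

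In 34 rats both muscles were measured, which sets each injured muscle against its own rat. Klk1, Bdkrb2, Agtr1a and Agtr2 were higher in the injured muscle of 34 of 34 rats, Bdkrb1 of 33 with equal values of 0.09 TPM in 1 rat, Ace of 31 and Agt of 11. Such counts were not made over all genes, so they do not set these members apart. The median gene of non-running rats differed by 0.60, 0.87, 0.54 and 0.43 between injured and contralateral muscle, higher in the injured, on the 4 days. The difference on the log2(TPM + 1) scale ran from 3.29 to 7.60 for Klk1, with medians of 3.997, 6.93, 6.29 and 5.40 at 3, 7, 14 and 28 DPI (8, 14, 8 and 4 rats). For Agtr1a it ran from 0.82 to 3.21, and for Bdkrb2 from 0.15 to 1.17. Agt was lower in the injured muscle of all 8 rats at 3 DPI (median -0.57) and higher in 3 of 4 rats at 28 DPI (median 0.33).

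**Figure D3:**
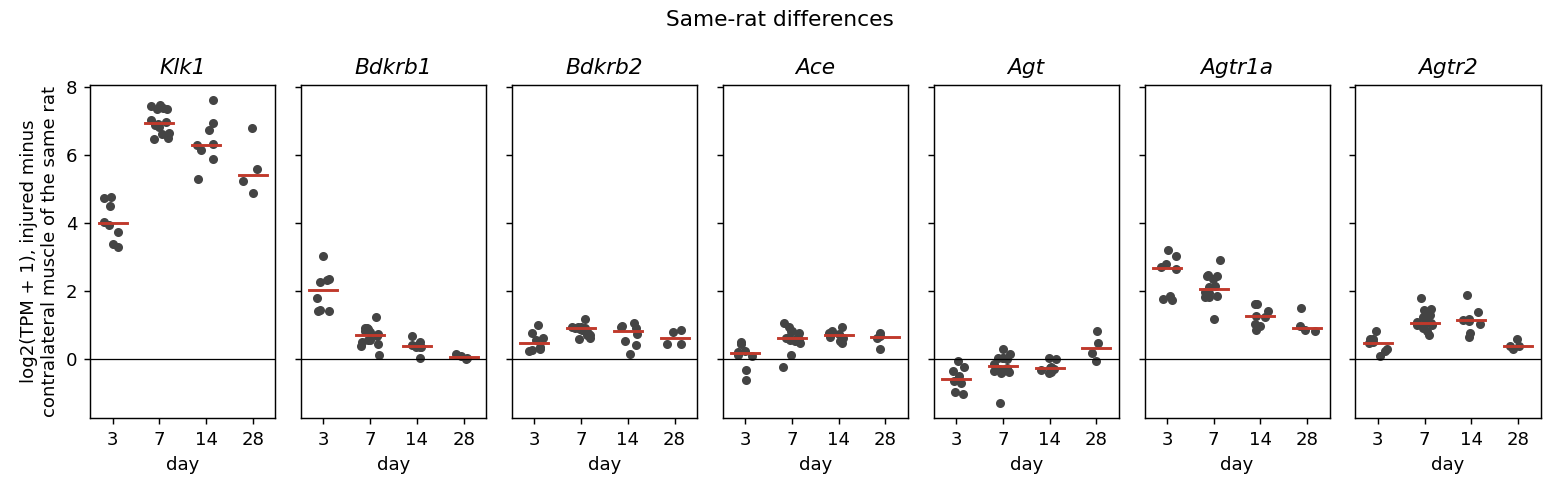
Injured minus contralateral muscle of the same rat in log2(TPM + 1), a point per rat and a red bar for the median, by day post injury and gene (34 rats). Klk1 lies between 3.29 and 7.60 in every rat, Bdkrb1 and Agtr1a are largest at 3 days, and Agt is below 0 in 23 rats.

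Whether the minced graft moved these genes was tested against no repair within injured muscle. None of the 28 tests in non-running rats (7 genes on 4 days) passed with limma, and none of the 28 in running rats. Of these, 4 and 1 had an unadjusted p under 0.05. Grafted muscle differed from non-repaired muscle in few genes at all, with 0.00883%, 0.0883%, 0.0265% and 0% of genes called at 3, 7, 14 and 28 DPI in non-running rats and 0%, 0%, 0.0177% and 0.0177% in running rats. Klk1 at 3 DPI was 41.1, 47.5 and 83.7 TPM in the 3 non-repaired muscles and 7.43 to 69.1 TPM (median 38.2) in the 7 grafted muscles of non-running rats. The groups overlapped, and the difference of -0.73 had a 95% interval from -1.40 to -0.05 (adjusted p = 0.261). It rested in large part on the grafted muscle at 7.43 TPM (rat 9), since the other 6 held 28.4 to 69.1 TPM and without it the difference was -0.39 (adjusted p = 0.563). In running rats it was 0.38 with an adjusted p of 1.00, and the difference between these graft effects, 1.10 ± 0.43 (SE), did not pass (adjusted p = 0.898) and was 0.77 without the muscle of rat 9. At 7 DPI, with 8 muscles in each arm, non-repaired muscles held 187 to 426 TPM of Klk1 (median 343) and grafted muscles 218 to 525 TPM (median 347), a difference of 0.06 with an interval from -0.43 to 0.54. At 14 DPI it was 0.58 with an interval from -0.11 to 1.27, which leaves a change of 1 log2 unit within reach of the data. Non-repaired muscles then held 150.1 to 210.6 TPM and grafted muscles 211.15 to 320.2 TPM, 4 in each arm, narrowly without overlap. How many of all genes did so was not counted. In running rats the arms overlapped, at 92 to 214.5 TPM and 177 to 329 TPM.

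Of the other members, Ace at 3 DPI was 12.6, 13.9 and 20.4 TPM without repair and 17.7 to 25.4 TPM with the graft (0.45 ± 0.14 SE, adjusted p = 0.160), and Bdkrb1 was 1.65, 2.70 and 3.03 TPM against 2.11 to 7.21 TPM (0.46 ± 0.18, adjusted p = 0.215). Agtr1a at 7 DPI had the lowest adjusted p of the graft tests, 0.127, with 6.52 to 20.97 TPM without repair and 13.1 to 23.1 TPM with the graft. The values without repair split by rat number, as given above. Intervals over all 28 tests in non-running rats lay between -1.40 and 1.27, and the widest were those of Klk1.

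Running was compared with no running in injured muscle over both repair arms. Of 28 tests only Klk1 at 28 DPI was called, and 5 had an unadjusted p under 0.05. Klk1 was lower in running rats by 1.26 on the log2(TPM + 1) scale (log2 -1.26, SE 0.30, limma, adjusted p = 0.0107), a comparison in which 0.309% of all genes were called and all of these were lower. The 4 running muscles held 18.5, 24.9, 32.8 and 39.1 TPM and the 8 non-running muscles 36.5 to 140 TPM with a median of 68.6, and the highest running muscle was above the lowest non-running muscle. The other 4 running rats labelled 28 DPI are among the libraries that could not be placed, so no running contralateral muscle of that day was compared. The difference was -1.15 with size factors. It had an adjusted p of 0.192 when the 13 sparse libraries were kept and of 0.362 in a fit of the compared groups alone, and leaving out rat 76, 85 or 87 also ended the call, at adjusted p of 0.0941, 0.170 and 0.276. The 9 of 10 regenerating muscle markers in the table summed to 902 to 1844 TPM in the running muscles and 2376 to 9583 TPM in the others, without overlap. Most of the sum was sarcolipin (Sln), at 684 to 1576 TPM against 2016 to 8374 TPM, and without Sln the sums were 161 to 278 against 361 to 1209 TPM. Taken singly, Sln, myogenin (33.5 to 64.4 against 86.01 to 354 TPM) and Chrna1 did not overlap, and the other 6 of 9, Myod1, Myh3, Myh8, Tmem8c, Chrng and Ncam1, did. The part of these markers in the difference was not tested.

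At 3, 7 and 14 DPI no member was called for running, beside 0.0177%, 0% and 0% of all genes. Agtr1a at 3 DPI was 14.4 to 39.5 TPM in 10 non-running and 17.8 to 43.7 TPM in 14 running muscles (0.44 ± 0.15 SE, limma, adjusted p = 0.0978). Agtr2 was 0.18 to 0.60 and 0.20 to 1.28 TPM in the same muscles (0.28 ± 0.10, adjusted p = 0.137), and Bdkrb1 1.65 to 7.21 and 1.40 to 4.17 TPM (-0.33 ± 0.11, adjusted p = 0.110). All of these ranges overlapped. In contralateral muscle none of 21 limma tests of running at 3, 7 and 14 DPI passed, 3 had an unadjusted p under 0.05, and 0.265%, 0.00883% and 0% of all genes were called.

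The uninjured muscle of operated, non-running rats was set against the 4 control muscles to ask whether these genes differ outside the wound. No member was called by limma in 28 tests, 6 of which had an unadjusted p under 0.05, while 7.15% of all genes were called at 3 DPI and 1.04%, 1.03% and 0.512% on the later days. At 3 DPI, Ace (0.94 ± 0.15 SE, limma, adjusted p = 2.33e-07), Agt (0.71 ± 0.18, adjusted p = 0.000522) and Agtr1a (0.81 ± 0.24, adjusted p = 0.00239) were past the adjusted p and inside the fold limit, as 66.4% of all genes were past that p. The median of all genes was shifted by 0.44 in this comparison, and with size factors the 3 differences were 0.41, 0.43 and 0.45. Of the 24 other pathway genes tested, described further on, 4 were called higher at 3 DPI and none on the later days. These were Serping1 (1.76 ± 0.27 SE, limma, adjusted p = 1.66e-07), the mast cell protease Cma1 (1.57 ± 0.31, adjusted p = 2.11e-05) and the aminopeptidases Anpep (1.68 ± 0.30, adjusted p = 2.57e-06) and Enpep (1.302 ± 0.14, adjusted p = 1.32e-11). With size factors they came to 1.22, 1.12, 1.297 and 0.83, the last inside the fold limit. Of 11 marker lists, 8 had a higher sum in each of the 8 contralateral muscles at 3 DPI, running rats included, than in any control. The widest ratio of medians was that of the neutrophil markers (9 of 9 in the table), at 11.05 to 171 TPM (median 113) against 1.99 to 6.86 TPM (median 6.01). Fibroblast markers (10 of 10) summed to 1170 to 2972 against 140 to 527 TPM and macrophage markers to 109 to 281 against 25.3 to 51.0 TPM, and the part of these lists was not tested. For Klk1 the differences at 3 and 7 DPI were 0.66 and 0.70 on this scale (adjusted p = 0.0837 and 0.0928). With a pseudocount of 0.1 TPM in place of 1, these Klk1 differences of non-running rats became 1.28 and 1.33 and were called (adjusted p = 0.00324 and 0.00174), as were the 3 genes above at 3 DPI. Without the left muscle of control rat 38, or without contralateral rat 17, the Ace difference was 1.00 and 1.05 and passed the fold limit. In running rats, which were not tested against control, the difference was 0.99 and 1.07 for Klk1 at 3 and 7 DPI, and at 3 DPI 0.65 for Ace, 0.44 for Agt and 0.86 for Agtr1a. At 28 DPI Klk1 in contralateral muscle was back within the control range.

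**Figure D4:**
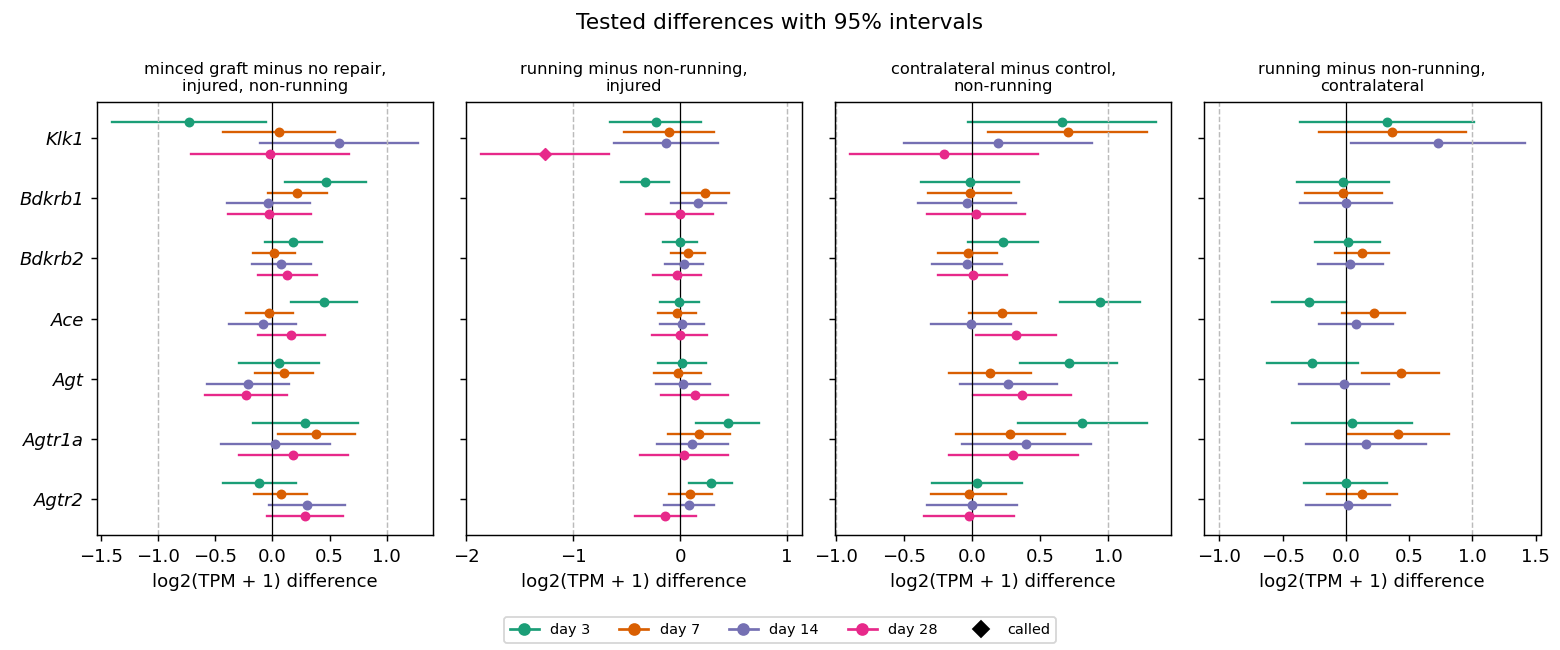
Differences in log2(TPM + 1) with 95% intervals for the 7 members in 4 tested comparisons, coloured by day, with dashed lines at the fold limit of 1 and a diamond for a called gene. A single diamond stands out, Klk1 at 28 days in running against non-running injured muscle (-1.26), and Ace, Agt and Agtr1a lie between 0.7 and 1 in contralateral against control muscle at 3 days.

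The courses of the members were then compared over the 31 groups by Pearson's r of group mean log2(TPM + 1), which is a description over points that share days and injury. Klk1 ran most like Bdkrb2 (r = 0.93) and Agtr2 (r = 0.93), and less like Bdkrb1 (r = 0.50). Agtr1a ran most like Bdkrb2 (r = 0.91) and Bdkrb1 (r = 0.89). Agt had negative r with 5 members, down to -0.50 with Bdkrb1, and 0.15 with Ace. Among all tested genes, those most like Klk1 were C1qtnf3 (r = 0.989), Ephb3, Sec1 and Eda, and those most like Agtr2 were Fetub (0.975), Dlk1, Aard and Nrk. For Bdkrb1 they were Runx3 (0.986), Havcr2, Slc4a5 and Eme1, for Bdkrb2 Clic2 (0.987), Aebp1, Phldb1 and B4galt4, and for Agtr1a Dpysl2 (0.996), Dock11, Tmod3 and Acly. Agt was most like Cidec (0.881), Adipoq, Plin1 and Fmo2, of which Cidec, Adipoq and Plin1 are known adipocyte genes, and Ace like RGD1305938 (0.948), Tmem252, Adarb1 and Srrm2.

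The other genes of both pathways were taken from lists of 64 symbols by role, of which 52 were in the table and 24 had a mean above 1 TPM in some group. In non-repaired muscle of non-running rats against control, 15, 14, 8 and 7 of 24 rose at 3, 7, 14 and 28 DPI and none fell (limma), where 48.3%, 45.6%, 25% and 21.1% of all genes were called higher. Their median differences were 1.32, 1.10, 0.65 and 0.64 on the log2(TPM + 1) scale, beside 0.96, 0.91, 0.53 and 0.52 for all genes. With size factors the calls were 9 higher and 3 lower at 3 DPI, 8 and 3 at 7 DPI, 5 and 1 at 14 DPI and 4 and 0 at 28 DPI. In grafted muscle 16, 16, 10 and 9 rose, beside 53.5%, 51%, 31.8% and 25.3% of all genes, and with size factors 9, 9, 6 and 4 were higher and 3, 3, 1 and 0 lower. Against contralateral muscle 11, 13, 10 and 5 rose, and at 3 DPI 1, the mineralocorticoid receptor Nr3c2, fell by 1.15 on the log2 scale (34.8%, 43.8%, 23.4% and 16% of all genes were called higher, and 6.39% lower at 3 DPI). With size factors 7, 9, 6 and 2 were higher and 3, 2, 0 and 0 lower. With a pseudocount of 0.1 TPM the counts at 28 DPI were 13 in place of 7 for non-repaired muscle against control and 9 in place of 5 against contralateral muscle.

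Of the genes that make or guard kinins, the substrate was scarcely seen. The kininogen gene Kng1 was listed at 0 in 78 of 114 muscles, among them all 38 uninjured ones, with a highest value of 0.33 TPM. Kng2 was listed at 0 in 111 muscles. Klkb1, plasma kallikrein, reached at most 0.42 TPM and factor XII at most 0.25 TPM. Serping1, the inhibitor of plasma kallikrein and of complement C1, was 8.35 to 17.6 TPM in control and 123 to 231 TPM in non-repaired muscle at 7 DPI, a rise of 3.58 ± 0.24 (SE, adjusted p = 4.46e-25). Of the tissue kallikreins only Klk1b3 and Klk1c12 were tested, and Klk1c12, listed at 0 in all 4 controls, was 0.96 to 2.47 TPM in non-repaired muscle of non-running rats at 7 DPI. It passed the filter only through 6 injured groups, so its call among those counted above is no support, and the limit on shared reads given above holds for it.

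Of the 8 tested peptidases that cut kinins, 3, 3, 3 and 2 rose on the 4 days in non-repaired muscle, beside 48.3%, 45.6%, 25% and 21.1% of all genes. A difference of the list from these shares was not tested. Prcp, a lysosomal carboxypeptidase that also cuts angiotensin II, was 0.54 to 2.34 TPM in control and 31 to 47.8 TPM in the 3 non-repaired muscles of non-running rats at 3 DPI (3.92 ± 0.24 SE, adjusted p = 7.63e-27). Mme, neprilysin, rose by 2.48 ± 0.26 at 3 DPI and Cpm, carboxypeptidase M, by 1.85 ± 0.21 at 7 DPI (limma, adjusted p = 2.21e-14 and 2.59e-13). With size factors these 3 differences were 3.08, 1.67 and 1.201.

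Of the angiotensin-forming genes all 5 tested rose at 3 DPI in non-repaired muscle against control, where 48.3% of all genes did. Against contralateral muscle, over both repair arms, 4 of 5 rose, beside 34.8% of all genes. Atp6ap2, a subunit of the vacuolar proton pump, rose by 3.02 ± 0.21 (SE) at 3 DPI, cathepsin A (Ctsa) by 3.72 ± 0.22 and cathepsin D (Ctsd) by 1.76 ± 0.14 (limma, adjusted p = 1.77e-23, 2.21e-28 and 7.85e-21), and with size factors the differences were 1.94, 2.58 and 0.61. Chymase (Cma1), a mast cell protease that makes angiotensin II, was 2.12 to 4.02 TPM in control, 3.66 to 16.2 TPM in contralateral and 6.90 to 64.8 TPM in injured muscle, and the 10 of 10 mast cell markers, Cma1 among them, summed to 6.49 to 8.54 TPM in control and 41.8 to 101.6 TPM at 7 DPI.

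Of the aminopeptidases that cut angiotensins, all 5 rose at 3 DPI in non-repaired muscle against control, beside the same 48.3% of all genes. Against contralateral muscle, over both repair arms, 2 of 5 rose at 3 DPI, beside 34.8% of all genes. Anpep, aminopeptidase N, was 1.46 to 2.66 TPM in control and 86.9 to 144.2 TPM in the 3 non-repaired muscles of non-running rats at 3 DPI, the largest difference of the pathway lists in this contrast at 5.201 ± 0.32 (SE, adjusted p = 1.32e-26). Dpp3 rose by 2.16 ± 0.13 and with size factors by 1.07. Lnpep (1.13 ± 0.27) and Enpep (1.09 ± 0.15), aminopeptidase A, also rose, but came to 0.29 and 0.10 with size factors. Of the remaining receptors and partners, Agtrap, which binds the type 1 receptor, rose by 1.66 ± 0.15 at 3 DPI (limma, adjusted p = 5.64e-18), but came to 0.62 with size factors, inside the fold limit. Mas1, the receptor of angiotensin 1-7, held 0.11 to 0.90 TPM in injured and 0.04 to 0.41 TPM in uninjured muscle, and the second type 1 receptor Agtr1b at most 0.09 TPM.

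**Figure D5:**
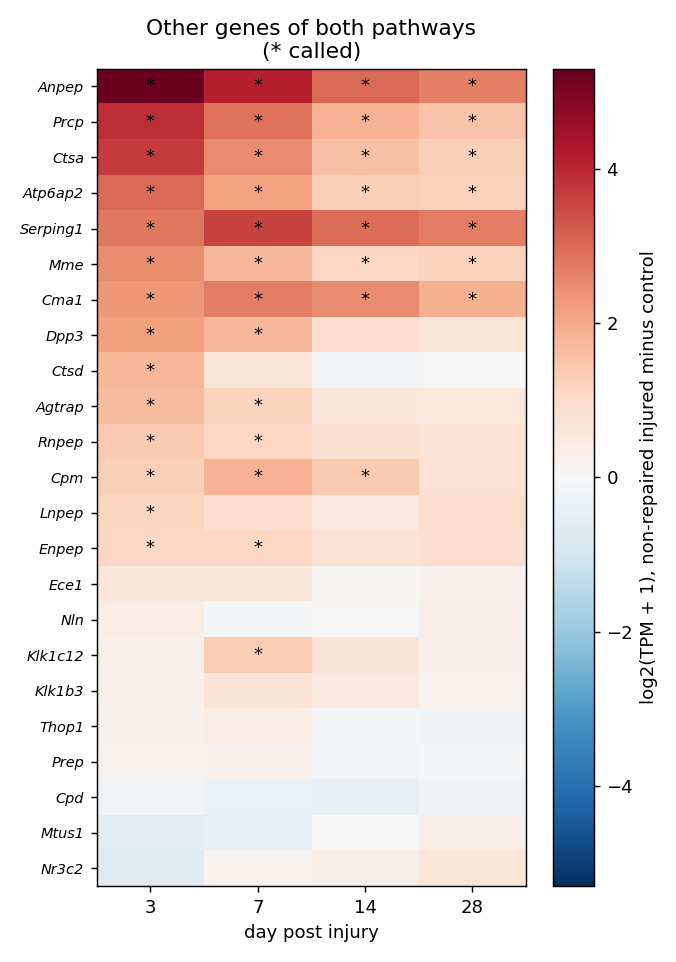
Non-repaired injured minus control muscle in log2(TPM + 1) for 23 of the 24 other tested genes of both pathways, by day post injury, ordered by the value at 3 days; an asterisk marks a called gene. Anpep (5.201), Prcp (3.92) and Ctsa (3.72) lead at 3 days, 14 genes carry an asterisk at 3 days and 7 at 28 days.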

How the data were processed

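Transcript abundance in TPM was deposited by the authors as a single table of all libraries, made with Kallisto against the Genbank-annotated rat genome build 6.0, and the labels' processing notes name kallisto and DESeq without versions. The part of the table used here holds 16181 symbols, and genes after its last complete row are not analysed here. Labels and titles of 8 libraries, all of running rats at 28 DPI, contradict each other in side of injury. The day label of 1 further library differs from that of the other libraries of its rat. These 9 libraries entered no comparison. After 13 libraries with fewer than 7000 symbols above 1 TPM were dropped (8 of running rats, 2 muscles lost), libraries of a muscle were averaged, which left 114 muscles in 31 groups.

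Genes with a group mean above 1 TPM (11328, all 7 members among them) were tested on log2(TPM + 1) with limma 3.58.1 (R 4.3.3, intensity trend, statmod 1.5.0), using a mean per group and 83 residual degrees of freedom. All p-values are two-sided and adjusted by Benjamini-Hochberg over the genes of a contrast. Calls needed both an adjusted p under 0.05 and a log2 difference beyond 1, a scale that understates changes of low genes. Tables and figures were made with Python 3.11.15, numpy 2.4.6, pandas 2.3.3 and matplotlib 3.10.9, and the fits were tested on simulated data.

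The members and lists were chosen with earlier results of these data known, so members are described and not tested in injury contrasts, nor is Klk1 between days. Of each pathway list the text names called genes whose non-repaired and control muscles do not overlap, at most the 2 highest and 2 lowest, with the kininogens and Mas1 in any case. Results for some genes of the lists are not reported here. Klkb1, F12, Klk1b3, Cma1, Agtr1b and Nr3c2 were added after their values were seen. Alternatives were a pseudocount of 0.1, no filter, size factors, all libraries kept, each library as a sample, the rat as a replicate block, a covariate for rat number range, the compared groups alone and each muscle of small groups left out. Averaging the control muscles per rat, and leaving out each grafted muscle of non-running rats at 3 DPI, were chosen after seeing the data. Muscles of the same rat (34 pairs) were weakly alike, with a mean correlation of deviations from group means of 0.094 against -0.0002 for other pairs. The 8 Klk1b and Klk1c symbols share near-identical sequence with Klk1.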

Additional observations from a re-analysis of the deposited data

Results flagged for a closer look

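Within groups of 4 to 10 muscles, 12 of 112 combinations of gene and group had a muscle standing far from the others by Dixon's test at 95%. The test is set to flag about 1 of 20 by chance. That rate does not hold where all other muscles are at 0, since any single value above 0 is then flagged. For Bdkrb1 these were the highest control muscle (0.11 TPM, the others at 0), the highest contralateral non-repaired muscle at 7 DPI (0.04, the others at 0), the lowest non-repaired muscle of non-running rats at 14 DPI (0.03, the next 0.28) and the highest of running rats (0.62, the next 0.28). For Agtr2 they were the highest control muscle (0.2 TPM, the others at 0), the highest contralateral grafted muscle at 7 DPI (0.04, the others at 0) and the highest non-repaired muscle at 7 DPI (2.45, the next 1.33). For Agtr1a they were the highest grafted muscle at 3 DPI (39.45 TPM, the next 26.39), and the highest non-repaired muscles at 14 DPI (9.25, the next 6.58) and 28 DPI (6.47, with the others lower). Ace had 1 such muscle, non-repaired in a running rat at 7 DPI (24.46 TPM, the next 15.6), and so had Agt, grafted at 14 DPI (0.85, the next 0.57). No such muscle was found for Klk1 and Bdkrb2.

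The 9 unplaced libraries were in no comparison, and their highest values stood above the highest control muscle for each member. For every member but Agt the highest value was in a library labelled as injured. The highest was 43.48 TPM for Klk1 (control 0.88), 0.14 for Bdkrb1 (control 0.11), 1.52 for Bdkrb2 (control 0.77), 19.74 for Ace (control 10.32), 1.55 for Agt (control 0.96), 5.86 for Agtr1a (control 2) and 0.45 for Agtr2 (control 0.2).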

How the results depend on the processing

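With a pseudocount of 0.1 TPM, calls among members numbered 5 in place of 0 for contralateral against control muscle, and 6 in place of 1 between days. The step of Ace from 7 to 14 DPI became 0.14 and that of Bdkrb2 0.024 with size factors. The single call for running in injured muscle became 0 with all libraries kept and 0 in the compared groups alone. Leaving out muscles in turn gave 0 to 1 calls for running in injured muscle, with Klk1 at 28 DPI between -1.52 and -1.002, 0 to 1 for contralateral against control, 1 between days, 0 for the graft, 0 for running in contralateral muscle, 83 to 97 for pathway genes against control (95 with all muscles) and 38 to 41 against contralateral muscle (40). With the rat as a replicate block the counts were 0, 1, 0, 0 and 1 for contralateral, day, graft, contralateral running and injured running, and 95 and 40 for pathway genes, and Klk1 at 28 DPI was -1.26 (adjusted p = 0.0106, limma), so the pairing changed no call. With the control muscles averaged per rat, members had 0 calls for contralateral against control, as before, and pathway genes 94 in place of 95 against control, with 8 in place of 9 in grafted muscle at 28 DPI. With size factors pathway calls, higher and lower together, were 68 and 29. Depth is unknown for TPM, and levels near 0 for Bdkrb1 and Agtr2 carry no counting error.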

Other observations

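The 9 unplaced libraries are given as values only. In the 4 libraries titled as control sides but labelled as injured at 28 DPI, Klk1 was 19.22, 35.76, 38.48 and 43.48 TPM and Agtr1a 4.76, 5.06, 5.86 and 5.61 TPM. In the 4 titled as injured but labelled as uninjured, Klk1 was 0.19, 0.47, 0.24 and 0.34 TPM and Agtr1a 1.93, 2.09, 1.76 and 2.06 TPM. Klk1 thus lay on the side of the labels, since placed injured muscles held 7.43 TPM or more and uninjured ones 3.27 TPM or less. Whether the titles were exchanged was not tested. The contralateral library whose day is in doubt held 2.56 TPM of Klk1 and 14.17 TPM of Ace. In the 2 muscles with repeat libraries, both at 3 DPI, Klk1 was 31.25 and 33.12 TPM, and 39.26 and 42.2 TPM.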
